A study of Mus musculus with 8 samples.

Results

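Primary follicular cells that had received a control siRNA and vehicle were profiled on 2 arrays out of the 8 in the series, and these 2 arrays, chosen by their titles alone, are described here gene by gene. Each array held RNA of a separate pool, made from the preantral follicles of 5 pooled female Swiss mice aged 8 weeks. Follicles were dispersed and grown as a monolayer for 9 days in all. The medium held 4% serum, and from day 7 it was hormone-free, with charcoal-treated serum and no androstenedione. Cells were transfected with 12 pmol of the control siRNA together with 200 ng of a pDsRed plasmid, and vehicle was added 10 h before lysis. The remaining 6 arrays hold, in pairs, cells cultured and transfected with the plasmid in the same way that received the control siRNA and 100 nM estradiol (E2), the FOXL2 siRNA and vehicle, or the FOXL2 siRNA and E2. Since every well was transfected, the profile is that of transfected cells, and untreated cells were not measured on these arrays. The labels describe the cultures as mostly granulosa cells, without a sort, so each value is an average over all cell types of the well. In such bulk samples, fewer cells of a type and less RNA per cell cannot be told apart.

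Granulosa cells surround the oocyte and feed it through gap junctions. They make inhibins and activins, turn androgens into estrogens with aromatase, and answer follicle-stimulating hormone through a receptor that sits on their surface. FOXL2, a forkhead transcription factor, keeps them in the female somatic fate, and the orphan nuclear receptor NR5A1 (SF-1) drives genes of steroid synthesis. Theca cells lie outside the basement membrane of the follicle and supply the androgens.

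Signals are given on a log2 scale, as the processed fluorescence of a gene divided by the 75th percentile of its array, so that 0 is the 75th percentile of the probes. That 75th percentile was 275.2 units on array 1 and 353.6 units on array 2. Between 51.39 and 55.66% of the probes of each of the 8 arrays were well above background, which is the scanner software's flag for a spot clearly brighter than its surroundings, and no probe was saturated. Of 24232 genes, 14896 (61.5%) were well above background on both control arrays, 1264 on 1 array and 8072 on neither. Counts of detected genes in the lists below, meaning those well above background on both arrays, are to be read beside that 61.5%. The rank of a gene is given as its percentile among all 24232 genes. Probes differ in how well they hybridise, so a percentile orders signals and not numbers of transcripts. The same holds wherever genes or lists are called bright, dim, brightest or leading below.

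The first question was whether the cells carried the marks of granulosa cells. All 5 defining markers were well above background on both arrays. Inha, the alpha subunit of inhibin, read 6.99 on array 1 and 6.97 on array 2 and lay at the 98.7th percentile. Nr5a1 read 5.10 and 5.17 (95.6th percentile). Foxl2 read 5.13 and 4.69 (94.8th percentile). Esr2, which encodes estrogen receptor beta, read 3.59 and 3.33 (88.5th percentile), and Fst, the activin-binding protein follistatin, read 3.03 and 3.00 (85.5th percentile). By their gene values all these markers were above the 75th percentile of the probes on both arrays, Foxl2 by its brighter probe only.

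Foxl2 is the target of the siRNA in other groups, and its signal was therefore checked in every array. It was 4.62 and 4.44 in the arrays labelled control siRNA plus E2, 5.08 and 5.07 in those labelled FOXL2 siRNA plus vehicle, and 4.80 and 4.64 in those labelled FOXL2 siRNA plus E2. The mean over its probes, which is nearly all that of the brighter one, did not separate the arrays by their siRNA label, but its 2 probes differed. The brighter probe, A_55_P2037732, read 5.43 to 6.13 on the 4 arrays labelled control siRNA and 5.63 to 6.08 on the 4 labelled FOXL2 siRNA, and these ranges overlap. The dimmer probe, A_55_P2041668, was well above background on both control arrays. It read -1.33 and -1.73 in control siRNA plus vehicle and -1.56 and -1.97 in control siRNA plus E2. It read -2.50 and -2.85 in FOXL2 siRNA plus vehicle and -2.29 and -2.82 in FOXL2 siRNA plus E2, so that every array labelled FOXL2 siRNA was below every array labelled control siRNA. The groups are called below by their labels.

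The 16 further granulosa genes split. Amhr2, the receptor of anti-Müllerian hormone, read 7.19 and 6.87. Inhba and Inhbb, the beta subunits that make activins, read 6.09 and 6.22 and 5.00 and 5.39. The zinc finger factor Gata4 read 5.03 and 5.33. The transcription factor Wt1 read 4.66 and 4.46. All of these lay above the 93rd percentile. Nr5a2 (3.00 and 2.58), Foxo1 (2.97 and 2.45), Hsd17b1, which makes estradiol from estrone (2.68 and 2.44), the gap junction gene Gja1 (1.89 and 1.97), Kitl, the ligand by which granulosa cells reach the oocyte's KIT (1.53 and 1.37), and Runx1 (1.10 and 0.97) followed. Gatm (-0.85 and -0.85) and Hsd11b2 (-1.11 and -1.33) were below the 75th percentile of the probes yet above background on both arrays. Hsd11b2 was lower, at -3.05 and -4.06, on the arrays labelled control siRNA plus E2, although the authors list it among genes that E2 activated. Under the FOXL2 siRNA it read -5.61 and -4.31 with vehicle and -3.29 and -4.25 with E2. What lies behind this direction was not tested, and the E2 labels were taken as given.

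Aromatase was dim, and the receptor of follicle-stimulating hormone and anti-Müllerian hormone were not detected. Cyp19a1, which encodes aromatase, read -3.68 and -3.81 and was well above background on both arrays at the 42.0th percentile. Fshr, the follicle-stimulating hormone receptor, and Amh, anti-Müllerian hormone, were not well above background on either array. Each of these 3 genes is read by 1 probe, and no second probe was there to set beside it.

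**Figure D1:**
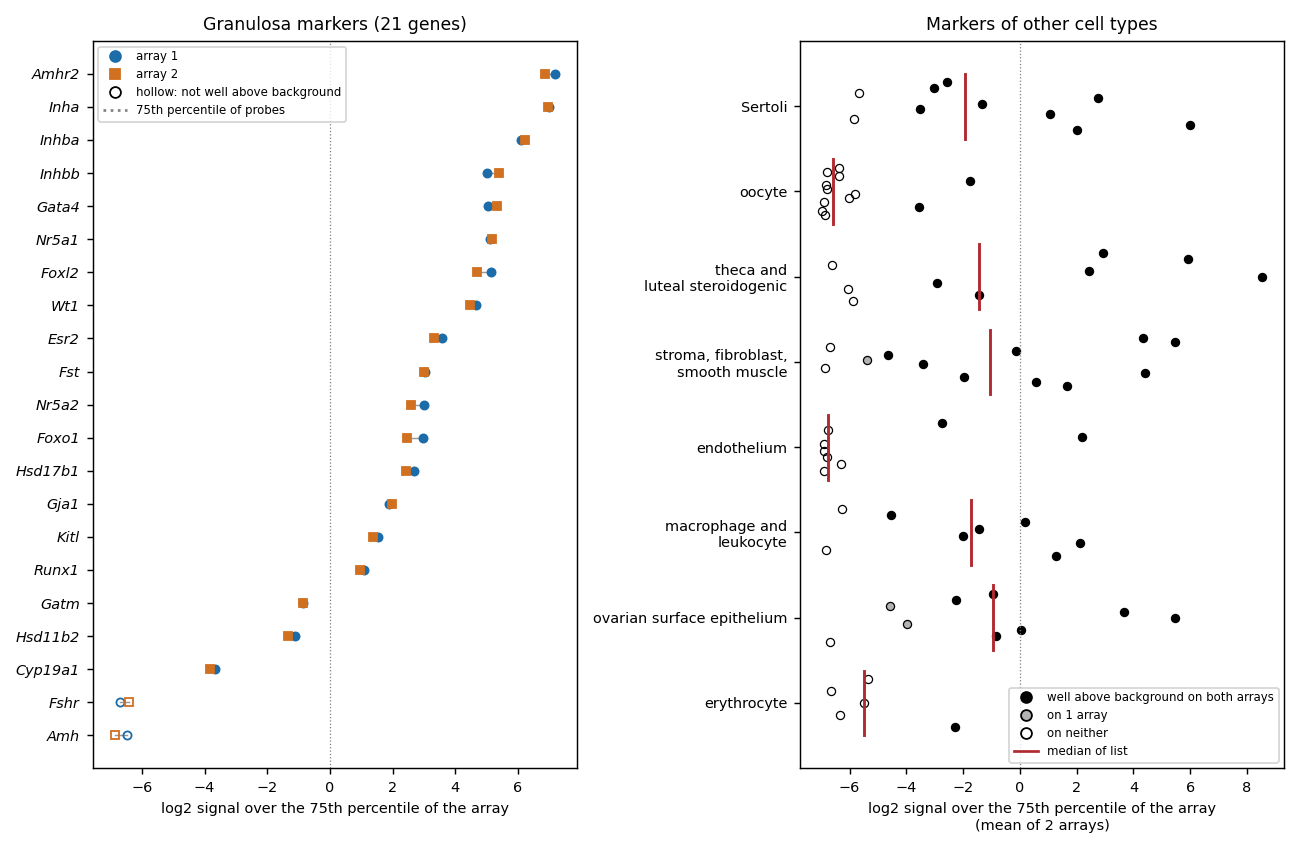
Left, log2 signal over the 75th percentile of the array for the 21 granulosa genes on array 1 (circles) and array 2 (squares), with hollow symbols where the gene was not well above background, and right, the mean of both arrays for markers of 8 other cell types, each dot a gene and each red bar the median of its list. Fshr and Amh are the hollow pair at the bottom left, and most oocyte and endothelial genes sit at the floor on the right.

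Promoter sequences of 6 genes of this profile are shown so that bright and undetected genes can be read side by side. They are the 250 bases before the annotated start, 5′ to 3′ on the strand of the gene, from RefSeq on GRCm38.p6, with each CG dinucleotide in capitals. Inha lies at chr1:75507359-75507608 (plus strand), Amhr2 at chr15:102445117-102445366 (plus strand), Foxl2 at chr9:98955357-98955606 (plus strand) and Hsd3b1, which encodes a 3-beta-hydroxysteroid dehydrogenase, at chr3:98859795-98860044 (minus strand). Fshr, at chr17:89200676-89200925 (minus strand), and Lhcgr, the luteinizing hormone receptor, at chr17:88792015-88792264 (minus strand), belong to genes that were not well above background.
Inha: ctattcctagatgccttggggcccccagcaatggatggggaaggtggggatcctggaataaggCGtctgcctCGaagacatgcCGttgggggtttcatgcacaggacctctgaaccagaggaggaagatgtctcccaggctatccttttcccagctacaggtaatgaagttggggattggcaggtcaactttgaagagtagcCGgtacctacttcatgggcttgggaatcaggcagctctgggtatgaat
Amhr2: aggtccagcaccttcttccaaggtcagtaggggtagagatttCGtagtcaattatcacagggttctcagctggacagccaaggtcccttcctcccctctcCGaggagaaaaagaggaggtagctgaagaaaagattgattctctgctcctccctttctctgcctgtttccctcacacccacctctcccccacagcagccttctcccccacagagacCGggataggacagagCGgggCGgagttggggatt
Foxl2: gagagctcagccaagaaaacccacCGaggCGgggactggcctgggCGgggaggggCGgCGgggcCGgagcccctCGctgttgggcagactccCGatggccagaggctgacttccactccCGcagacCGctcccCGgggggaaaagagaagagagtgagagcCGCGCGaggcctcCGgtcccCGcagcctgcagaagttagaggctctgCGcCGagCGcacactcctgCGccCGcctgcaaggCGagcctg
Hsd3b1: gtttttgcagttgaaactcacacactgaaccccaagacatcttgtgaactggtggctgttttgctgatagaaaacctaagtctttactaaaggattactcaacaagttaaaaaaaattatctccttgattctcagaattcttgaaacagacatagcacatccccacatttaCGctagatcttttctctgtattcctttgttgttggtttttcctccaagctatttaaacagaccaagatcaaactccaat
Fshr: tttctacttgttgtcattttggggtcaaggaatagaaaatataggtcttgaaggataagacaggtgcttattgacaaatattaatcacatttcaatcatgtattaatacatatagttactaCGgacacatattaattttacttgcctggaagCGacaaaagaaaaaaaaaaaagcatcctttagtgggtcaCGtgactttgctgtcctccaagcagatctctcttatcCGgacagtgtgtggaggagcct
Lhcgr: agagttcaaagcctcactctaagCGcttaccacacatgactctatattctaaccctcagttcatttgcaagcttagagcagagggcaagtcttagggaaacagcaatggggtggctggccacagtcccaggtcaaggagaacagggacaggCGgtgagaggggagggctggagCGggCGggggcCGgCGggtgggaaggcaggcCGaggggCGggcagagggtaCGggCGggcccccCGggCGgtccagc

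The table held 21300 such promoters for 17480 of the measured genes, and none for Nr5a1, Fst or Star. The median promoter of a gene well above background on both arrays held 14 CG dinucleotides (quartiles 7 and 22, 14094 promoters). For genes on neither array the median was 3 (quartiles 1 and 7, 6176 promoters), and over all promoters it was 10. The 6 shown do not follow that order. The bright genes Inha, Amhr2 and Hsd3b1 had 4, 5 and 1 CG dinucleotides and Foxl2 had 22, while the undetected Fshr and Lhcgr had 4 and 12. The letters AAGGTCA, a site that NR5A1 is known to bind, were searched on both strands. They were found in 3.63% of all promoters, in 3.01% of those of genes well above background on both arrays and in 4.91% of those of genes on neither. Among the 6 shown only Amhr2 held them, on the gene's strand from -231 to -225 relative to the start. These are matches of letters and were not tested as sites. The median share of G and C bases was 56% over all promoters, 59.2% for genes on both arrays and 48.4% for genes on neither. The part of base composition in the shares with the letters was not tested.

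Markers of other cell types were read next. Of 12 oocyte genes, 2 were well above background on both arrays, Gdf9 (-1.96 and -1.54) and Ddx4 (-3.92 and -3.17), and the zona pellucida genes Zp1, Zp2 and Zp3 were on neither. Of 8 endothelial genes, Kdr, a receptor of vascular endothelial growth factor (2.45 and 1.92), and Pecam1 (-2.38 and -3.08) were detected, while Cdh5, Tek and Tie1 were on neither array. Of 5 erythrocyte genes only the anion exchanger Slc4a1 (-3.27 and -1.30) was detected, and the globin genes Hba-a1 and Hbb-b1 and the heme enzyme Alas2 were on neither. The macrophage and leukocyte list gave 6 of 8, led by Itgam (2.27 and 1.96) and Cd3e (1.62 and 0.91), with Adgre1, Csf1r, Cd68 and Cd14 detected too. Ptprc, the pan-leukocyte antigen CD45, and Lyz2 were on neither. These 4 lists thus each lacked defining members, although most of the macrophage and leukocyte list was detected.

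Of 9 genes of steroid-making theca and luteal cells, 6 were detected and 3 were on neither array. Hsd3b1 read 8.60 and 8.48 (99.7th percentile), Cyp11a1, which starts steroid synthesis by cutting the side chain of cholesterol, 5.86 and 5.97, and Star, which brings cholesterol to that enzyme, 2.27 and 2.63. Cyp17a1, the androgen-making enzyme of theca cells, read 3.35 and 2.49. Lhcgr, the hedgehog target Gli1 and the prostaglandin receptor Ptgfr were not well above background, and Insl3 was not measured. Hsd3b1 has close copies in the genome, and how far their transcripts bind its probe was not tested.

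Of 10 Sertoli genes, 8 were well above background on both arrays. The retinoic acid-degrading enzyme Cyp26b1 read 5.70 and 6.27, Dhh, a hedgehog ligand, 2.72 and 2.77, Fgf9 1.72 and 2.29, the prostaglandin D synthase gene Ptgds 1.51 and 0.59, and Dmrt1 -1.08 and -1.61. Sox9, the factor that sets the Sertoli fate, read -2.66 and -2.45 and Sox8 -2.98 and -3.05, near the middle of all genes. Sox10 and Gata1 were on neither array. Of 12 genes of stroma, fibroblasts and smooth muscle, 9 were detected, led by Tagln (4.92 and 5.98), Dcn (4.86 and 3.96), Acta2 (3.55 and 5.14), Col3a1 (1.69 and 1.63) and Col1a1 (1.05 and 0.07), while the smooth muscle myosin Myh11 and Tcf21 were on neither. Of 9 surface epithelium genes, 6 were detected, with Krt18 (5.57 and 5.35), Krt8 (3.63 and 3.67) and Msln (0.04 and 0.03) the brightest and Lgr5 on neither array. Muc16 (-0.38 and -1.33) and Upk3b (-0.71 and -1.17) completed its 5 brightest.

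The receptors that could make such cells responsive to hormones were then described, beginning with the nuclear receptors, transcription factors that bind steroids, retinoids, fatty acids and other small ligands. Of 49 genes, 37 were well above background on both arrays and 12 on neither. The median was at the 56.1th percentile, against 50 for all genes by construction. Nr2f6 read 5.21 and 5.41, Nr5a1 5.10 and 5.17, Rxrb, a retinoid X receptor that pairs with many others, 4.94 and 4.89, Nr1h2, an oxysterol receptor, 4.88 and 4.55, and Pparg, a fatty acid-sensing receptor, 4.63 and 4.62.

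Steroid receptors outside the rule for naming genes, given here with their values already known, gave unlike readings. Esr2 was bright, as above. Esr1, which encodes estrogen receptor alpha, read -4.29 and -4.26 over 4 probes, of which 2 were well above background on both arrays and 2 on neither. Pgr, the progesterone receptor, was not well above background with any of its 3 probes. The glucocorticoid receptor Nr3c1 read 0.77 and 0.55, and the mineralocorticoid receptor Nr3c2 was on neither array. Rarb, Nr1h5 and Nr1i2 were the first of the undetected receptors in the order of the list.

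**Figure D2:**
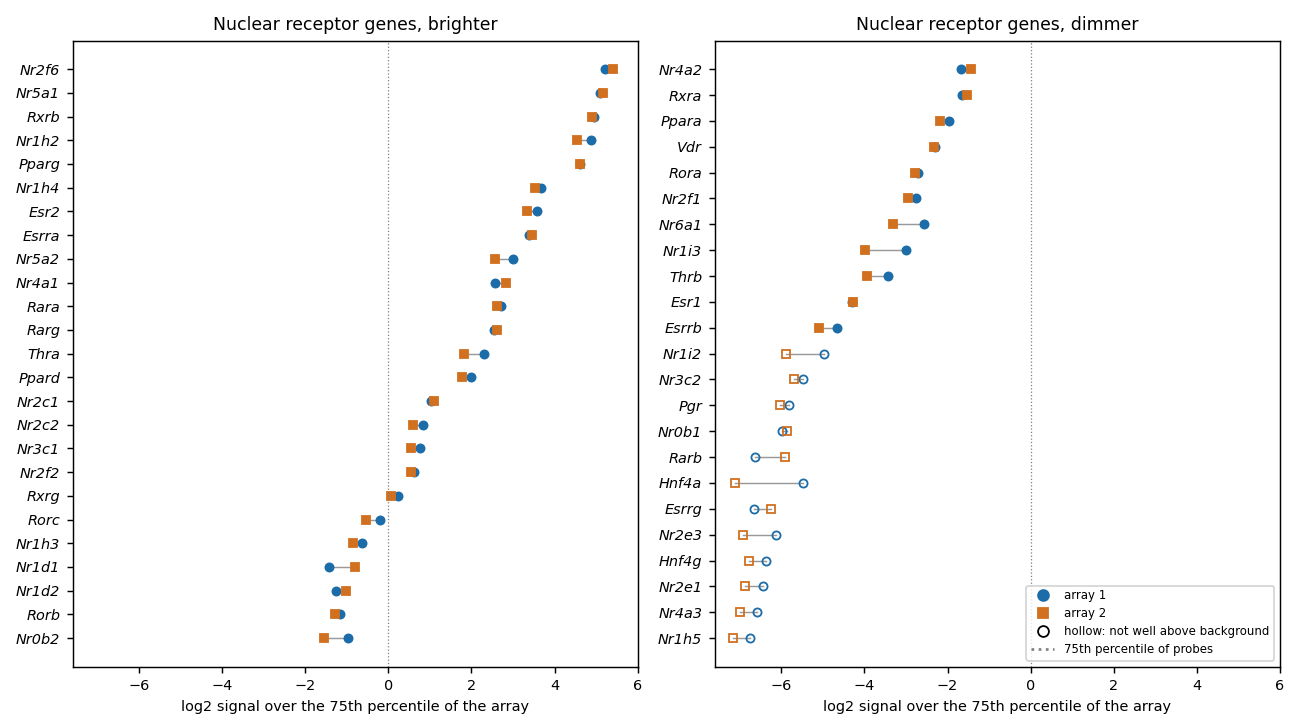
Log2 signal over the 75th percentile of the array for nuclear receptor genes in order of their mean, on array 1 (circles) and array 2 (squares). Filled symbols were well above background on that array, and the 12 hollow pairs at the bottom right, Pgr and Nr0b1 among them, were not.

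Receptors of peptide hormones and prostaglandins were dimmer as a group, with a median at the 43.4th percentile. Of 27, 17 (63%) were detected on both arrays, near the 61.5% of all genes. The adiponectin receptor Adipor2 read 5.87 and 6.00, Npr2, the receptor of C-type natriuretic peptide, 3.50 and 3.59, the prostaglandin E2 receptor Ptger2 2.48 and 2.57, Adipor1 2.24 and 2.63, and the prolactin receptor Prlr 1.89 and 1.71. Both gonadotropin receptors, Fshr and Lhcgr, were undetected, as was the thyrotropin receptor Tshr.

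Receptors of the TGF-beta superfamily were detected in 13 of 15 cases, with Tgfbr3 on 1 array and Bambi on neither. Amhr2 was followed by Bmpr1a (2.51 and 2.36), Acvr2b (2.38 and 2.19), Acvr1 (2.07 and 2.23) and Bmpr2 (2.12 and 2.12), so that type I and type II receptors of activins and bone morphogenetic proteins were both read. Receptor tyrosine kinases were detected in 19 of 27 cases. Axl read 6.36 and 6.56, the collagen receptor Ddr1 4.46 and 4.38, Tyro3 3.16 and 3.00, Kdr 2.45 and 1.92, and the epidermal growth factor receptor Egfr 1.65 and 1.07. Erbb3, Flt1 and Flt4 were on neither array.

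Among 22 transcription factors of the gonad, 20 were detected. Sox4 (5.50 and 5.39) stood beside Gata4, Nr5a1, Foxl2 and Wt1 as the 5 brightest, and Lhx9 and Tcf21 were on neither array. The place of Foxl2 rests on its brighter probe, whose ranges under the control and FOXL2 siRNA labels overlap. Its dimmer probe, lower on every array labelled FOXL2 siRNA, read -1.33 and -1.73 on the control arrays. The median of this list lay at the 70.8th percentile.

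Secreted factors were led by the TGF-beta superfamily, of which 24 of 27 ligands and antagonists were detected on both arrays, with a median at the 71.6th percentile. Inha was followed by Fstl1 (6.60 and 6.28), Inhba, Inhbb and Ltbp3, which holds latent TGF-beta in the matrix (5.06 and 5.07). Of the oocyte ligands of this family, Bmp15 was on neither array, and Amh was likewise undetected. Inha, Inhba, Inhbb and the activin antagonist Fst were each read above the 85th percentile.

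The insulin-like growth factor list gave 9 of 15 (60%), near the 61.5% of all genes. Htra1, a protease that cleaves binding proteins, read 7.89 and 7.75, Igfbp2 3.90 and 4.60, Igf1 3.38 and 3.03, Igfbp5 2.65 and 1.69 and Stc2 1.31 and 1.26. Igf2, Igfbp1 and Igfbp3 were not well above background. Of 58 other growth factors and cytokines, 47 were detected. Ccn2, a matricellular protein and known target of TGF-beta, read 5.99 and 6.29, progranulin (Grn) 5.23 and 5.12, Ccn1 4.36 and 4.75, the ovary-promoting ligand Wnt4 4.57 and 4.00, and osteopontin (Spp1) 3.72 and 4.18. Epgn, Fgf10 and Hgf were on neither array.

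Matrix genes were read for the basement membrane first. Of 30 collagen genes, 21 were detected, and the 4 brightest all encode collagen IV, the network of basement membranes. Col4a2 read 5.04 and 5.76, Col4a1 5.08 and 5.29, Col4a5 2.44 and 2.25 and Col4a6 2.39 and 2.18, followed by Col16a1 (2.12 and 2.41). Col5a3, Col6a3 and Col8a2 were on neither array. Of 18 laminin and basement membrane genes, 14 were detected, with Lama1 at 7.25 and 6.97, agrin (Agrn) at 5.65 and 5.48, Lamb1 at 4.95 and 5.31, perlecan (Hspg2) at 3.63 and 3.17 and Lamc1 at 3.10 and 3.32. These hold one chain of each of the 3 laminin classes, alpha, beta and gamma. Lama2, Lamb3 and Frem1 were on neither array.

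Of 50 matrix glycoproteins and proteoglycans, 34 (68%) were detected, beside 61.5% of all genes. Sparc, a collagen-binding protein, read 9.00 and 8.74 (99.8th percentile), the procollagen enhancer Pcolce 7.61 and 7.29, fibronectin (Fn1) 6.65 and 6.34, the collagen chaperone Serpinh1 6.34 and 6.11 and Efemp2 6.18 and 5.86. Sparcl1, Postn and Thbs2 were on neither array. Of 33 matrix proteases and inhibitors, 28 were detected, led by the cathepsins Ctsl (7.32 and 7.12), Ctsb (6.37 and 6.56) and Ctsd (6.23 and 6.25), the inhibitor cystatin C (Cst3, 6.93 and 6.91) and Mmp11 (5.75 and 5.66), while Mmp3, Mmp10 and Mmp13 were undetected. Of 20 integrins, 15 were detected. Itgb5 (7.38 and 7.58) and Itga6 (5.99 and 6.03), an alpha chain of laminin receptors, were followed by Itga11, Itgb1 and Itgb3 between 2.44 and 2.99, and Itga4, Itga8 and Itgb6 were on neither array.

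The cytoskeleton gave 32 of 37 genes detected and a median at the 92.7th percentile. Actb (10.07 and 9.70), S100a6 (9.23 and 8.59), Lgals1 (8.60 and 8.40), Actg1 (8.42 and 8.43) and Anxa2 (8.21 and 8.15) were the brightest. Gjb2, Cdh1, the adhesion molecule of epithelia, and Cdh5 were on neither array. Cell cycle genes were detected in 24 of 26 cases, with Cdk4 (5.91 and 5.97), Mcm6 (5.74 and 5.53), Ccnd3 (5.45 and 5.47), Plk1 (4.74 and 4.88) and Pcna (4.71 and 4.82) the brightest, and with Ccne2 and Aurkb on neither array.

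Every measured gene was detected in 3 of the metabolic lists. All 22 genes of the citric acid cycle were well above background on both arrays with a median at the 93.1th percentile, led by Mdh2 (7.68 and 7.60), Cs (6.41 and 6.41), Sdhb (5.69 and 5.55) and Sdhd (5.14 and 5.23). All 29 measured genes of the antioxidant and glutathione list were detected too, with a median at the 92.1th percentile. The dismutase Sod1 read 7.71 and 7.45, the peroxiredoxin Prdx2 7.67 and 7.28, the glutathione peroxidases Gpx4 and Gpx1 7.34 and 7.29 and 6.69 and 6.82, and Mgst1 6.22 and 6.23. Gsta1 was not measured as a gene.

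Glycolysis gave 26 of 31. Aldoa read 8.74 and 8.70, Gapdh 7.62 and 7.73, Pkm 6.96 and 6.98, Eno1 6.72 and 7.03 and Gpi1 6.86 and 6.86. Hk3 and Pklr, forms known from blood and liver, were on neither array. The lactate dehydrogenase genes Ldha and Ldhb, outside the rule for naming genes, read 6.33 and 6.31 and 6.05 and 6.09.

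All 28 genes of cholesterol synthesis and uptake were detected, with a median at the 81.7th percentile. Msmo1 read 6.28 and 6.44, Fdps 6.10 and 5.70, Npc2, which carries cholesterol out of lysosomes, 5.93 and 5.68, and Ebp 5.52 and 5.08. Of 31 fatty acid genes 29 were detected. The desaturase Scd2 read 7.48 and 7.68, Elovl1 5.88 and 5.66, Acadvl 5.67 and 5.46 and the lipid droplet coats Plin3 and Plin2 5.43 and 5.03 and 5.04 and 5.04, while Plin1, the coat of fat cells, was undetected.

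The steroid list was detected in part, with 22 of 28 measured genes detected and 8 above the 90th percentile. Hsd3b1 was followed by ferredoxin (Fdx1, 7.35 and 7.34), which hands electrons to CYP11A1, by Cyp11a1 itself, by Hsd17b10 (5.89 and 5.75) and by the ferredoxin reductase Fdxr (5.70 and 5.83). The adrenal enzymes Cyp11b1 and Cyp11b2, and Hsd17b2, were on neither array.

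**Figure D3:**
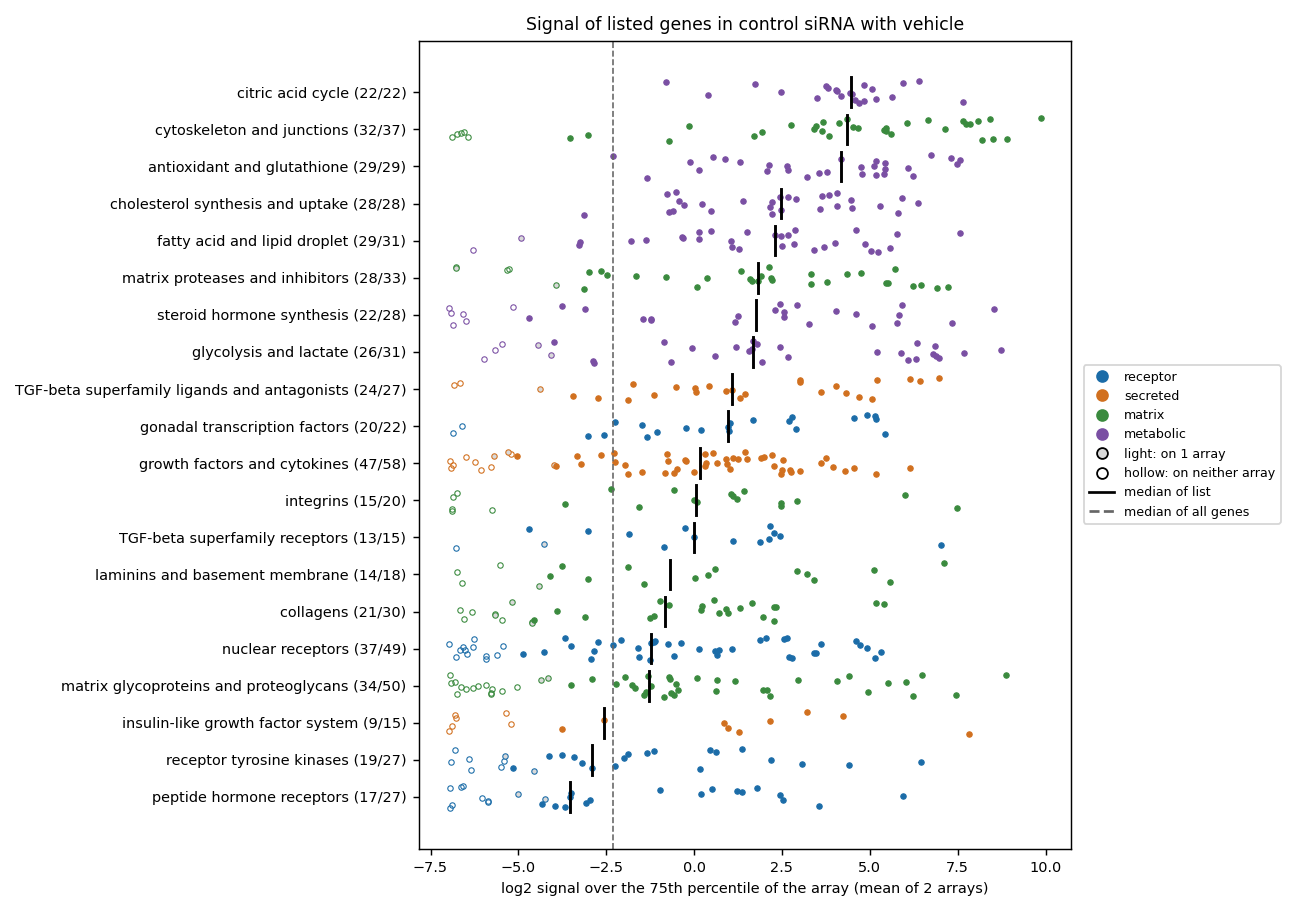
Mean log2 signal of each gene in the receptor, secreted, matrix and metabolic lists on the 2 control arrays (cell type markers and the cell cycle are not drawn), one row per list, ordered by the median of the list (black bar), with colours for the kind of list and, in brackets, genes well above background on both arrays over genes measured. The citric acid cycle, antioxidant and cholesterol lists have no hollow symbols, and of the lists drawn peptide hormone receptors have the lowest median, below that of all genes (dashed, -2.32).

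The genes of the highest signal were then listed. Gene ID 19791, which the RefSeq table left without a symbol, read 10.43 and 10.05, followed by the exosome gene Exosc2 (10.32 and 9.97), Rps14, Actb and the mitochondrial gene COX1 (9.92 and 9.67). The secreted chaperone clusterin (Clu, 9.88 and 9.48) and Chchd10, a protein of mitochondria (9.89 and 9.41), came next, ahead of Rack1 and the small RNA gene Rn4.5s. Rpl41, Rpl35, Ppia, Rpl37a, Fau, Rpl37rt, COX2, Rps20 and the unnamed gene ID 100045367 followed, between 9.26 and 9.70 on either array. The first 20 genes held 8.11% of the summed signal of all genes, the first 100 genes held 25.8% and the first 1000 held 68.6%. Of 97 ribosomal protein genes 94 were detected, 31 were among the first 100 and together they held 11.8% of the summed signal. Ribosomal protein genes have many copies in the genome, and their probes cannot be taken as specific to one of them. Exosc2 is read by 1 probe, at about the level of the brighter probes of Elk1 (10.35 and 9.96) and Slc10a1 (10.37 and 9.85). Each of those genes has another probe that was far dimmer, while Exosc2 has none to set beside it.

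How exact these values are was read from the difference between the 2 arrays. Across all genes, which are not independent replicates, the arrays correlated at a Pearson r of 0.988 and a Spearman rho of 0.972, and no gene had identical values on both. Among genes well above background on both arrays, the median difference was 0.188 without regard to sign, and 411 genes (2.76%) differed by more than 1, 133 higher and 278 lower on array 2. Dim genes differed most, with 8.24% beyond 1 for signals between -4 and -2 and 0.355% for signals between 2 and 4. Within an array, 10 spots of one probe differed by a median coefficient of variation of 4.57% on array 1 and 4.21% on array 2. All 20 of the brightest genes were lower on array 2, the widest gap being -0.57. With quantile normalisation, which forces all arrays to one distribution, 6 of the 20 were lower, so the direction of these differences changed with the scaling.

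Probes of one gene also differed. Of 5564 detected genes with more than 1 probe, 49.2% had probes whose log2 signals lay more than 3 apart, and 22.9% had at least 1 probe that was not well above background on either array.

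Some differences between the arrays recurred in the other groups. The 2 replicate numbers stand for separate pools of mice, and of the 411 genes that differed by more than 1, 233 (56.7%) had the same sign of difference between replicate 2 and replicate 1 in all 3 other groups. The share was 36.6% over all genes well above background on both control arrays. Among the 5 genes that were lowest on array 2 against array 1 were gene IDs 78553 and 97640, which have no symbol here, Nid2, a basement membrane protein (-1.73 and -4.31), and Gm1604a. Among the 5 highest were Mirg, Tex28, Tead4 (-4.19 and -1.69) and Olfr97. Nid2 was lower in replicate 2 by a similar amount in every group, -2.57 in control siRNA plus vehicle, -2.58 in control siRNA plus E2, -2.32 in FOXL2 siRNA plus vehicle and -2.92 in FOXL2 siRNA plus E2. Tex28 was higher on array 2 only in control siRNA plus vehicle, and its difference was -0.38, -0.29 and -0.0072 in the other groups.

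Further genes that differed between the replicates were looked up after their values had been seen, and each kept its sign on the control arrays with quantile normalisation. Acta2, smooth muscle actin, differed by 1.59 on the control arrays and by 1.66, 1.40 and 1.43 in the other 3 groups. Tagln differed by 1.06 and then by 1.22, 0.95 and 0.87, and Cnn1 by 0.80 and then by 1.16, 1.02 and 0.68. The chemokine Cxcl12 differed by 1.88, and by 2.39, 1.79 and 2.24 elsewhere. The proteoglycans Lum and Dcn, Col1a1 and Efemp1 were lower in replicate 2 in all 4 groups. On the control arrays the differences were -1.75, -0.91 and -0.98 for Lum, Dcn and Col1a1, and Efemp1 read 5.07 and 3.07. Bgn was lower in 3 groups. The interferon-inducible genes Mx1 and Zbp1 had differences of -2.28 and -2.27, and between -1.72 and -2.25 in the other groups. Akr1c18, which inactivates progesterone and marks luteal cells, had a difference of -2.25 and of -1.22 to -1.76 elsewhere. Of 34 detected matrix glycoproteins and proteoglycans, 28 were lower on array 2, with a median difference of -0.316 against -0.0139 for all detected genes, and 25 of 34 were lower with quantile normalisation (median -0.256).

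The 12 genes of stroma, fibroblasts and smooth muscle had a summed linear signal of 77.6 times the 75th percentile on array 1 and 119.5 times on array 2. It was 76.8 to 131.7 in control siRNA plus E2, 99.2 to 135.2 in FOXL2 siRNA plus vehicle and 99.9 to 128.9 in FOXL2 siRNA plus E2. Between 8 and 9 of its 12 genes were well above background on both arrays of a group, with Myh11 and Tcf21 on neither control array. Bright genes weigh most in that sum, and its members did not move together. Of the 9 well above background on both control arrays, 4 were higher and 5 lower on array 2, with a median difference of -0.066. Acta2 and Tagln were higher on array 2, while Dcn, Lum and Col1a1 were lower. The part of such cells in these differences was not tested.

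**Figure D4:**
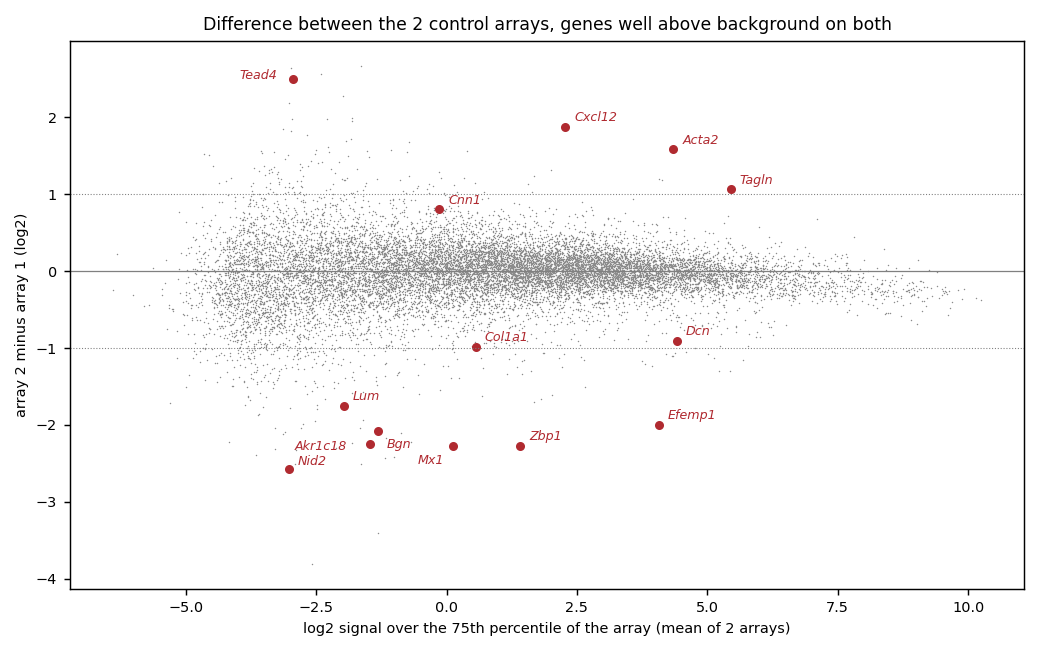
Array 2 minus array 1 (log2) against the mean log2 signal for the 14896 genes well above background on both control arrays, one grey point per gene, with dotted lines at a difference of 1 either way. Named genes are in red, and the spread widens toward dim genes.

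**Figure D5:**
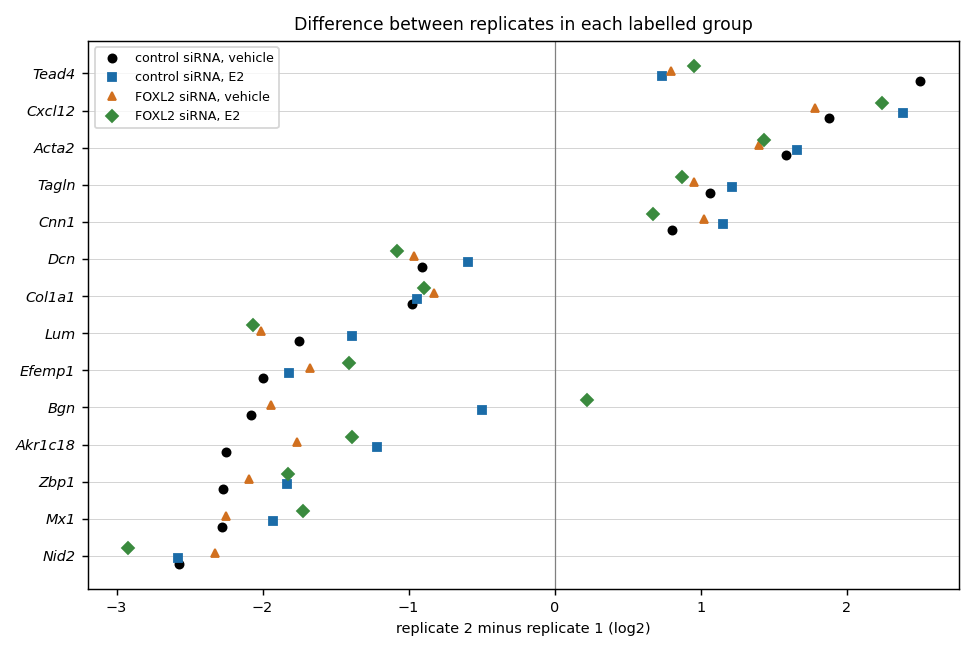
Replicate 2 minus replicate 1 (log2) for the named genes in each of the 4 labelled groups, one symbol per group. The 4 symbols of Acta2, Tagln, Cxcl12, Zbp1, Mx1 and Nid2 lie close together on one side of 0, while those of Bgn fall on both sides.

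The control profile was last set beside the other conditions. The 4 groups were compared with limma's moderated F test over all 8 arrays, which called 960 of 15636 genes at an adjusted p below 0.05, a background of 6.14%. With the replicate number as a block, 3130 genes were called, a background of 20%. Of the listed genes, 541 were tested and 115 (21.3%) were called, or 252 (46.6%) with the block. The lists were made with earlier results of these data known, so that share is no independent evidence about them.

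None of the 22 citric acid cycle genes was called by limma with or without the block, and none had an unadjusted p under 0.05. Of the genes of other cell types, the oocyte and leukocyte lists had none called in either fit over 2 and 6 tested members, and none at an unadjusted p under 0.05. The endothelial and erythrocyte lists, with 2 tested members each, had none called without the block and 1 each with it, and 0 and 1 members had an unadjusted p under 0.05. Other cell type lists had more called, without and then with the block, beside backgrounds of 6.14% and 20%. Of 9 Sertoli genes tested 4 and 8 were called, of 6 theca and luteal genes 2 and 5. Stroma, fibroblast and smooth muscle genes had 1 and 3 of 9, and surface epithelium genes 5 and 6 of 8.

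Counts below are given without and then with the block, beside backgrounds of 6.14% and 20% of all tested genes. Beside the citric acid cycle, with 0 and 0, the metabolic lists had 3 and 8 of 29 antioxidant genes called, 3 and 8 of 29 fatty acid genes, 4 and 9 of 28 glycolysis genes, 7 and 11 of 22 steroid genes and 11 and 20 of 28 cholesterol genes. Nuclear receptors had 4 and 14 of 36 called, and peptide hormone receptors 2 and 7 of 18. Growth factors and cytokines had 13 and 36 of 50, and TGF-beta superfamily ligands and antagonists 4 and 13 of 25. Of the matrix lists, collagens had 9 and 15 of 22, matrix proteases and inhibitors 8 and 17 of 29 and integrins 7 and 8 of 15. Matrix glycoproteins and proteoglycans had 11 and 23 of 37, and laminin and basement membrane genes 4 and 7 of 15. Among the 5 defining granulosa markers Fst alone was called without the block and 4 were called with it, and of the 14 further ones tested 5 and 11 were called.

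Called genes are given by the means of the 4 groups, in the order control siRNA plus vehicle, control siRNA plus E2, FOXL2 siRNA plus vehicle and FOXL2 siRNA plus E2. Wt1 had 4.56, 4.67, 5.70 and 5.57 (limma adjusted p = 0.00207), and Cyp11a1 5.92, 5.74, 6.77 and 6.67 (limma adjusted p = 0.00144). Both had higher means in the groups labelled FOXL2 siRNA than in either control siRNA group. Msln, a surface epithelium marker, had 0.03, 0.38, 2.53 and 2.02 (limma adjusted p = 0.000826). Of the 8 surface epithelium genes tested 5 were called, and the summed signal of the 9 on the list was higher in the groups labelled FOXL2 siRNA. It was 62.6 and 55.8 times the 75th percentile on the control arrays, 62.6 to 63.4 in control siRNA plus E2, 90.3 to 92.3 in FOXL2 siRNA plus vehicle and 83.4 to 87.9 in FOXL2 siRNA plus E2. Krt18 and Krt8, with means of 44.0 and 12.6 times the 75th percentile on the control arrays, made up most of that sum. Of its 9 genes 6, 7, 8 and 7 were well above background on both arrays of these groups, and Lgr5 was on neither control array. The summed signal of the 16 further granulosa genes was likewise higher there, at 335.7 and 322.3 on the control arrays, 337.8 to 349.0 in control siRNA plus E2, 435.5 to 468.3 in FOXL2 siRNA plus vehicle and 418.9 to 434.8 in FOXL2 siRNA plus E2. Bright genes weigh most in that sum, and its members did not move together. In FOXL2 siRNA plus vehicle Amhr2 read 7.78 and 7.49, Inhbb 5.77 and 6.09 and Wt1 5.81 and 5.59, above both control arrays. There Hsd17b1 (1.33 and 0.82), Gja1 (-0.26 and -0.86) and Hsd11b2 (-5.61 and -4.31) were below both, as were Foxo1 and Cyp19a1. The list had 14, 14, 12 and 13 genes well above background on both arrays of the 4 groups. The part of either kind of cell in the results of this comparison was not tested.

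Among secreted and matrix genes, Fgf18 had 1.11, 1.28, 2.81 and 2.78 (limma adjusted p = 0.000826), and the protease Adamts1 had 1.90, 1.81, 3.26 and 3.22 with the same adjusted p. Bdnf went the other way, with 3.60, 3.84, 2.61 and 2.57 (limma adjusted p = 0.00132). Thbs1, thrombospondin, had 5.51, 5.51, 4.27 and 4.42, and the matrix protease inhibitor Timp3 had 3.32, 3.67, 5.47 and 5.10. Their adjusted p in limma were 0.00178 and 0.00202. Col4a6, from the bright collagen IV group, had 2.29, 2.43, 3.44 and 3.30 (limma adjusted p = 0.00154). The urokinase gene Plau had its highest mean in control siRNA plus vehicle, with 1.58, -0.40, -1.19 and 0.07 (limma adjusted p = 0.00256).

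Other bright genes were called in one fit only. Amhr2, Nr5a1 and Star were not called without the block (limma adjusted p = 0.219, 0.141 and 0.258) and were called with it (0.000808, 0.0184 and 0.000437). Inha was called in neither fit (limma adjusted p = 0.33 and 0.172 with the block). A call that is missed with 2 arrays a group does not show that a level stayed the same.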

How the data were processed

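RNA of 8 cultures (50 ng, Cy3) was hybridised to one-colour Agilent arrays. The deposited scanner files hold spot intensities that the authors' Feature Extraction software (11.5.1.1) had background-corrected, and the deposited table holds log2 values that the authors had divided by each array's 75th percentile. Here log2 of the processed intensity minus that of the 75th percentile was taken. Once the median difference of each array from the authors' table was removed, 99.52 to 99.65% of gene values lay within 0.01 of it. Of 62976 spots, 3671 control spots were removed, as were 42 probes flagged on uniformity, which left 55639 probes. Of these, 33295 fell in 24232 genes by the gene ID in the authors' table, and 22349 genes took a symbol from RefSeq (GRCm38.p6). Probes of a gene were averaged on the linear scale, and a gene counted as well above background where at least 1 of its probes was.

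The 4 groups were compared with a moderated F test with an intensity trend (limma 3.58.1, R 4.3.3) over all 8 arrays, on genes whose scaled signal had a median of 10 units or more, with Benjamini-Hochberg adjustment at 0.05. Test code was tested on simulated data. Python 3.11.15, pandas 2.3.3, numpy 2.4.6 and matplotlib 3.10.9 were used for the rest. Deviations of same-numbered replicates from their group means correlated at 0.33 to 0.45 in every pair of groups, and the labels give each number a pool of 5 mice, so the numbers were taken to pair the arrays. All arrays lay on 1 slide and scan. The members and gene lists were chosen with earlier results of these data known. Named are all granulosa genes, and for each other list up to 5 of the highest signal, up to 3 not well above background and up to 3 of the smallest p among those called; the 20 brightest genes; and the 5 largest differences each way between both control arrays. Some genes that the rule names are not reported here. Genes outside that rule are said to be so or were chosen after their values were seen. Alternatives were another detection flag and rule, normexp, quantile normalisation, the brightest or median probe, the authors' values, other filters, no trend, the replicate block and leaving out each array. Normexp used the median spot signal, since the files used here have no mean signal. The number of arrays limits the precision.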

Additional observations from a re-analysis of the deposited data

How the results depend on the processing

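The count of genes well above background on both control arrays was 18005 with the looser flag for a positive and significant spot, 13276 when every probe of a gene had to pass, and 15289 to 15767 on either control array alone. Grouping by gene symbol was not run, since the scanner files used here hold none. The median percentile of the 5 defining granulosa markers was 94.8, 93.21 with normexp, 91.53 among genes well above background on both arrays, and 94.07 to 95.35 on either control array alone. The first of these values is that of Foxl2, which rests nearly all on its brighter probe. Medians of the 31 lists shifted by -5.71 to 9.06 percentile points with normexp, by -4.99 to 1 with the median probe and by -20.94 to 30.7 among genes well above background on both arrays, where 28 lists moved beyond the spread between both arrays. The correlation of both control arrays was 0.9875, 0.9954 with normexp and 0.9915 among genes well above background on both. The F test called 960 genes, 3130 with the replicate block, 628 without a filter on dim genes and 517 without the intensity trend. Leaving out 1 array gave 445 to 702, the lowest without replicate 1 of control siRNA plus E2. With 1 array left out, the lone array of that group is assumed to vary like the others. Of 61 named genes that the test called, 39 were called in all 8 other settings, 34 in all 8 that left out an array and 61 with the block. Dim genes, with the widest spread between arrays, limit what can be read.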

Other observations

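A pair of genes among those with the most unlike probes was chosen after their values had been seen. Slc10a1, which encodes a bile acid transporter known from liver, had one probe at 10.37 and 9.85 on the control arrays and another that was not well above background on either. Elk1, a transcription factor, had one probe at 10.35 and 9.96 and another at -2.65 and -1.93. Hsd3b2, a close copy of Hsd3b1, had 1 of 3 probes well above background, at 4.05 and 3.69.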
